A study of Homo sapiens with 2 samples.

Results

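Transcripts of 10 prolyl isomerase genes were examined in HCT116 cells, an established line from a human colorectal carcinoma, after 8 h with 1 µM CB-5083 and after 8 h with DMSO, the solvent. CB-5083 blocks p97 (the product of VCP), an ATPase that extracts ubiquitinated proteins from membranes and complexes for the proteasome. Each treatment was 1 library of polyadenylated RNA, and both came from the same parental line with no other agent or allele in the labels. The genes were picked by symbol from the 21115 in the files. FKBP2, FKBP7, FKBP9, FKBP10, FKBP11, FKBP14, PPIB and PPIC encode the 8 isomerases of the endoplasmic reticulum (ER), and FKBP4 and FKBP5 the 2 cytosolic ones set against them. The compartments are taken from general knowledge of the proteins and were not measured.

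Prolyl isomerases turn peptide bonds before proline between the cis and trans forms, a slow step in folding. FKBPs were first known as the receptors of the drugs FK506 and rapamycin, and cyclophilins as those of cyclosporin A. In the ER they serve secretory and membrane proteins, above all the proline-rich procollagens, while FKBP4 and FKBP5 are cochaperones that dock on HSP90 through tetratricopeptide repeats and tune steroid hormone receptors. When misfolded proteins build up in the ER, the unfolded protein response raises transcription of many ER chaperones through the factors ATF6, XBP1 and ATF4.

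The CB-5083 library held 31997654 estimated counts and the DMSO library 29273682. Levels are CPM, a gene’s counts relative to all counts of its library, scaled between the libraries with TMM factors of 0.888 for CB-5083 and 1.13 for DMSO. A gene was called higher or lower when its log2 ratio was at least 1 in size (2-fold) and its level was 5 CPM or more in either library. The ratio sets CB-5083 over DMSO after adding 1 CPM to both, which shrinks the ratios of genes with low levels. Because each treatment was 1 library there is no test, and the 95% intervals given with folds are exact (Clopper-Pearson) and cover counting error only. Of the 8 colon epithelial markers examined, 6 averaged at least 1 CPM, with EPCAM at 501 CPM with CB-5083 and 433 CPM with DMSO, whereas VIL1 and CEACAM5 were at or near 0 in both libraries. Of the 5 markers that passed the filter 1, CDH1 (E-cadherin), was called higher, beside 7.22% of all genes tested. CDH1 was at 243 CPM with CB-5083 and 66.7 CPM with DMSO, and the median log2 ratio of the 6 measured markers was 0.44. The part of this difference in the results below was not tested. The 6 markers of leukocytes, endothelium and fibroblasts summed to 3.70 CPM with CB-5083 and 2.66 CPM with DMSO, nearly all of it COL1A1, and PTPRC and COL1A2 were listed at 0 in both. In such a bulk library, fewer cells of a kind and less RNA per cell cannot be told apart.

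Of the 8 ER isomerases, 2 were higher with CB-5083, FKBP14 and PPIB, none was lower, 5 were neither and FKBP2 lay under the filter. Across all 9543 genes tested 7.22% were higher and 4.91% lower. Both cytosolic genes were neither. All 10 genes averaged at least 1 CPM, and 9 passed the filter of 5 CPM, FKBP7 and FKBP11 through the DMSO library alone. The median log2 ratio was 0.19 over the 8 ER genes and -0.44 over the 2 cytosolic genes, against 0.09 over all genes tested. The ER median includes FKBP2, which is not among the genes tested. Without FKBP2 the middle ER gene was FKBP9, at 0.11, close to the median of all genes tested. The log2 ratios of the ER genes lay on both sides of 0 and ran from -0.77 for FKBP11 to 1.59 for FKBP14.

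**Figure D1:**
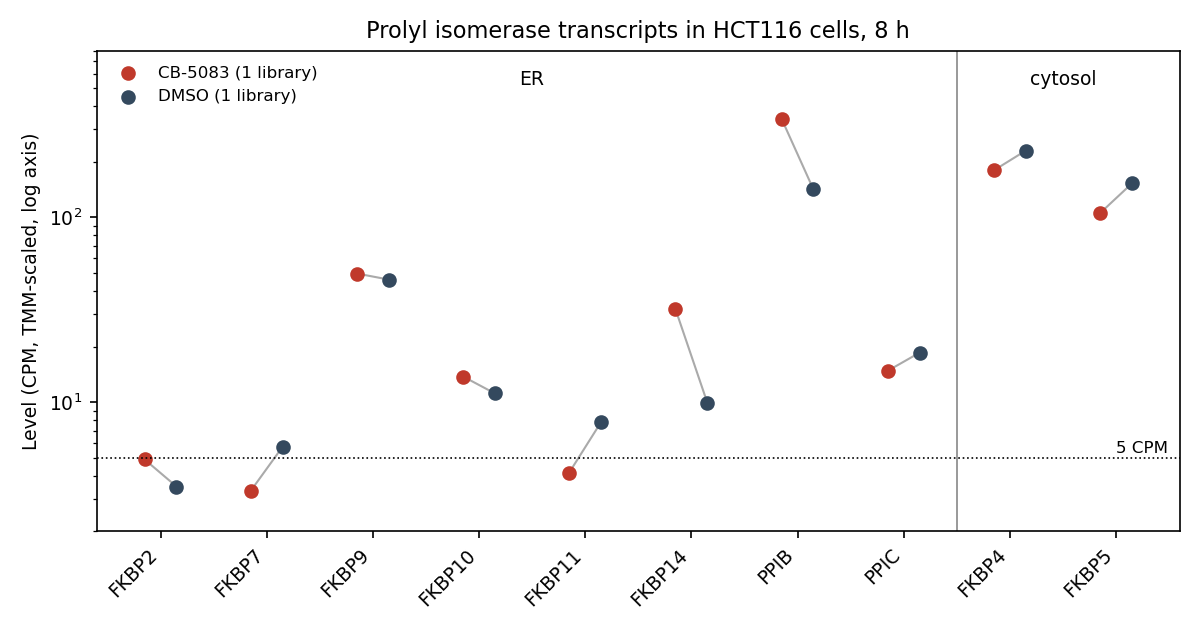
Level of each gene in CPM on a log axis, with the CB-5083 library as the left point and the DMSO library as the right point of each pair (1 library each, so no error bars). The dotted line is the filter at 5 CPM. FKBP14 and PPIB stand far above their DMSO points, while FKBP7, FKBP11, PPIC, FKBP4 and FKBP5 lie below theirs.

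FKBP14, a luminal isomerase with calcium-binding EF-hands that acts on collagens and is mutated in a kyphoscoliotic form of Ehlers-Danlos syndrome, had the highest ratio of the 10. It was at 31.9 CPM with CB-5083 and 9.93 CPM with DMSO (chromosome 7, 30052883 to 30066268, hg19). That is 907 against 327 estimated counts and a 3.21-fold difference (95% counting interval 2.83 to 3.66). Its log2 ratio of 1.59 was at or above that of 97.5% of the genes tested.

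FKBP7, an ER isomerase with the same build of 1 isomerase domain and EF-hands, whose mouse counterpart binds the ER chaperone HSPA5, pointed the other way. It was at 3.31 CPM with CB-5083 and 5.73 CPM with DMSO (chromosome 2, 179328390 to 179343355). The value in DMSO was 1.73-fold that with CB-5083 (1.35 to 2.25), and the log2 ratio of -0.64 was not past the threshold. Setting these 2 genes against each other removes the scaling between libraries, because both come from the same pair of libraries. The fold of FKBP14 was 5.57 times that of FKBP7 (counting interval 4.22 to 7.36).

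FKBP9 and FKBP10 each carry several isomerase domains in a row. FKBP10 assists type I procollagen and is mutated in osteogenesis imperfecta and Bruck syndrome. FKBP9 was at 49.7 CPM with CB-5083 and 46.1 CPM with DMSO (1.08-fold, 1.00 to 1.16), and FKBP10 at 13.8 CPM with CB-5083 and 11.1 CPM with DMSO (1.24-fold, 1.07 to 1.43). Both lay within the threshold, with log2 ratios of 0.11 and 0.28, and the sign of both depends on the scaling, since library totals gave -0.23 for FKBP9 and -0.03 for FKBP10. The fold of FKBP9 was 0.873 times that of FKBP10 (0.744 to 1.02), an interval that includes equal folds. FKBP9 has a near copy in the genome, FKBP9L, to which the authors' counting gave 1.75 estimated counts with CB-5083 and 0 with DMSO, so the share of FKBP9 reads that could belong to the copy is uncertain.

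FKBP11, a membrane-anchored isomerase typical of secretory cells, had the lowest ratio of the 10. It was at 4.15 CPM with CB-5083 and 7.80 CPM with DMSO, or 118 against 257 estimated counts. DMSO was 1.88-fold above CB-5083 (1.505 to 2.36), with a log2 ratio of -0.77 that was not past the threshold. FKBP11 lies close to the line: its log2 ratio was -0.9996 in the authors' deposited table, which adds no pseudocount, and -1.06 with library totals, where it counted as lower. FKBP2, a small luminal isomerase, was at 4.89 CPM with CB-5083 and 3.49 CPM with DMSO, 139 against 115 estimated counts (1.40-fold, 1.09 to 1.81), and stayed just under the filter. Genes at such levels differed from the rest in general: among the 1909 tested genes with the lowest mean levels, from 2.96 to 10.6 CPM, the median log2 ratio was -0.19, and 12.8% were lower. FKBP7 and FKBP11 are among them. PPIB, FKBP4 and FKBP5 are among the 1909 tested genes with the highest mean levels, from 113 CPM. In that set the median log2 ratio was 0.31, 11.1% were higher and 0.681% lower. The part of level in the ratios of these members was not tested.

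PPIB, cyclophilin B, belongs to the complex with P3H1 and CRTAP that hydroxylates a proline of procollagen, and also binds several ER chaperones. It was at 342 CPM with CB-5083 and 142 CPM with DMSO (chromosome 15, 64448013 to 64455354, hg19), a 2.41-fold difference (2.33 to 2.50) with a log2 ratio of 1.26. The call rests on the scaling, since library totals gave a log2 ratio of 0.92, short of the threshold. PPIC, cyclophilin C, the other cyclophilin of the secretory pathway here, was at 14.8 CPM with CB-5083 and 18.5 CPM with DMSO (chromosome 5, 122359077 to 122372425), and its log2 ratio of -0.31 was not past the threshold. The fold of PPIB was 3.02 times that of PPIC (2.66 to 3.44), whatever the scaling. The CPM of the 8 ER genes, which are not corrected for transcript length, summed to 465 CPM with CB-5083 and 245 CPM with DMSO, of which PPIB made up 73.6% with CB-5083 and 58.0% with DMSO, and without PPIB the sums were 122 CPM with CB-5083 and 103 CPM with DMSO.

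The promoters of the ER cyclophilins and of FKBP11 are shown because they stand for a higher gene, its nearest relative and the gene with the lowest ratio. Each stretch holds 250 bases, taken from RefSeq on GRCh38.p14, minus strand, and is written 5′ to 3′. The PPIB and PPIC stretches end at the base before the annotated start, at chr15:64163023-64163272 and chr5:123036726-123036975. The FKBP11 stretch, for the second of 2 annotated starts, ends 6 bases after the start, at chr12:48924983-48925232. Capitals mark CCAAT and CCACG, which are the outer parts of the ER stress element, and the core TGACGTG of the unfolded protein response element, on either strand.
PPIB: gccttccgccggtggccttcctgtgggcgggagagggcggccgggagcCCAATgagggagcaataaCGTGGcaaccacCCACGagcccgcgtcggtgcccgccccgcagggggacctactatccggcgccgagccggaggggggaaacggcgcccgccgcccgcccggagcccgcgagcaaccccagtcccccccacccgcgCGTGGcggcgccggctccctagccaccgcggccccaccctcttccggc
PPIC: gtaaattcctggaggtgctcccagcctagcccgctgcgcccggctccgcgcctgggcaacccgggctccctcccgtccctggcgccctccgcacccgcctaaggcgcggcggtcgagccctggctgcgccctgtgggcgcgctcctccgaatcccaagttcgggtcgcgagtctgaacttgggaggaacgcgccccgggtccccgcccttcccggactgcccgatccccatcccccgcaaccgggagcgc
FKBP11: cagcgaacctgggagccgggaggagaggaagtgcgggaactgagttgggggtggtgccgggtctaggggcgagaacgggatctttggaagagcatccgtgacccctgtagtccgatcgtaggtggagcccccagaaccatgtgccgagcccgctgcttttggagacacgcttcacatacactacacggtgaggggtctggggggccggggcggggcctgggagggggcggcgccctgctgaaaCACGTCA

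In the 250 bases before its start PPIB held 1 CCAAT, at -202 to -198 from the start, and 3 CCACG, at -172 to -168 on the forward strand and at -184 to -180 and -48 to -44 on the reverse strand. Their spacing is not that of the whole ER stress element, in which 9 bases part CCAAT from CCACG and which was absent from all 13 windows of the 7 genes with a RefSeq entry, also with 1 mismatch allowed. FKBP4, FKBP10 and FKBP14 had no entry. The whole element occurred in 0.0769% of 35116 promoter windows of 300 bases, CCAAT alone in 34.6% and CCACG alone in 38.1%, so the single parts are common. The PPIC stretch held none of them. In FKBP11, 1 match to TGACGTG lay on the reverse strand across the start, from -1 to 6, a motif held by 1.97% of all windows. The other FKBP11 window matched the glucocorticoid element, GNACA and TGTNC parted by 3 bases, at 20 to 32 after the start (0.39% of all windows). No window of these genes matched the second ER stress element, ATTGG and CCACG parted by 1 base (0.0541% of all windows), the C/EBP-ATF element TGATGNAA (3.62%) or the heat shock element, GAA, TTC and GAA with 2 bases between each (0.49%). A match here is a run of letters and not a measured binding site.

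The 2 cytosolic genes were abundant and had lower values with CB-5083. FKBP4, which promotes signalling by steroid receptors bound to HSP90, was at 180 CPM with CB-5083 and 230 CPM with DMSO (chromosome 12, 2904107 to 2914587). DMSO was 1.28-fold above CB-5083 (1.23 to 1.33). FKBP5, which restrains the same receptors and is itself a well-known glucocorticoid target, was at 106 CPM with CB-5083 and 153 CPM with DMSO (chromosome 6, 35541361 to 35696397), with DMSO 1.45-fold above CB-5083 (1.38 to 1.52). Their log2 ratios of -0.35 and -0.53 were both within the threshold and negative under each of the 5 scalings and sources of the ratio compared. The fold of FKBP5 was 0.883 times that of FKBP4 (0.833 to 0.935).

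The median log2 ratio of the 8 ER genes, with FKBP2 counted, exceeded that of the cytosolic genes by 0.64, and by 0.65 with library totals. Without FKBP2 the gap is smaller, since the middle ER gene is then FKBP9, at 0.11. The gap does not separate the members. By log2 ratio FKBP7 and FKBP11 lay below both cytosolic genes. PPIC lay between the cytosolic genes and the 5 ER genes with positive ratios. As folds, the counting intervals of FKBP7 (0.445 to 0.742) and FKBP11 (0.424 to 0.665) overlapped that of FKBP5 (0.659 to 0.722). That of PPIC (0.702 to 0.904) held that of FKBP4 (0.754 to 0.810). The order of these genes is therefore uncertain. The summed level of the cytosolic pair was 286 CPM with CB-5083 and 383 CPM with DMSO.

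**Figure D2:**
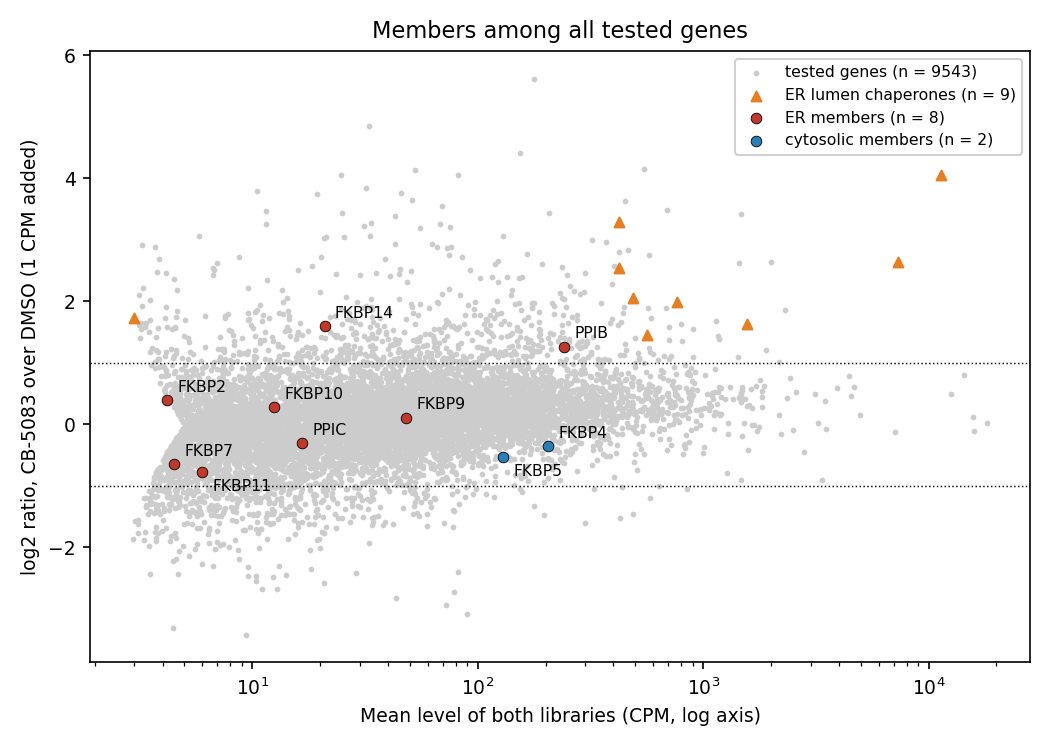
Log2 ratio of CB-5083 over DMSO (1 CPM added) against the mean level of both libraries in CPM (log axis) for the 9543 tested genes (grey), the 8 ER genes including FKBP2, the 2 cytosolic genes and 9 ER lumen chaperones. Dotted lines mark the threshold of 1 in either direction. FKBP14 and PPIB lie above it, the other members between the lines, and the 9 chaperones all above it.

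Levels of different genes were ranked per kb of transcript, using the longest RefSeq-matched transcript of GENCODE 29. Which transcripts of a gene were in use was not measured. The order therefore depends on this choice of length, which the counting intervals leave out. PPIB came first in both libraries, at 316 CPM per kb with CB-5083 and 131 CPM per kb with DMSO, followed by FKBP4 at 48.3 CPM per kb with CB-5083 and 61.7 CPM per kb with DMSO. FKBP14 was sixth with CB-5083, at 6.43 CPM per kb (counting interval 6.02 to 6.87), and last with DMSO, at 2.003 CPM per kb (1.79 to 2.23). FKBP7 was last with CB-5083, at 1.17 CPM per kb (0.943 to 1.43), and beside FKBP14 with DMSO, at 2.02 CPM per kb (1.75 to 2.33). At the lengths used, 4960 bases for FKBP14 and 2834 for FKBP7, their levels per kb overlapped within counting error with DMSO and did not with CB-5083. With CB-5083, FKBP9 at 14.4 CPM per kb and FKBP5 at 14.3 CPM per kb could not be told apart, and FKBP10 at 5.17, FKBP2 at 4.88 and FKBP11 at 4.03 CPM per kb had overlapping intervals. With DMSO, PPIC at 13.4 and FKBP9 at 13.3 CPM per kb overlapped, as did FKBP10 at 4.18 and FKBP2 at 3.48 CPM per kb. FKBP11 was at 7.57 CPM per kb with DMSO, sixth and apart from its neighbours in the order.

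**Figure D3:**
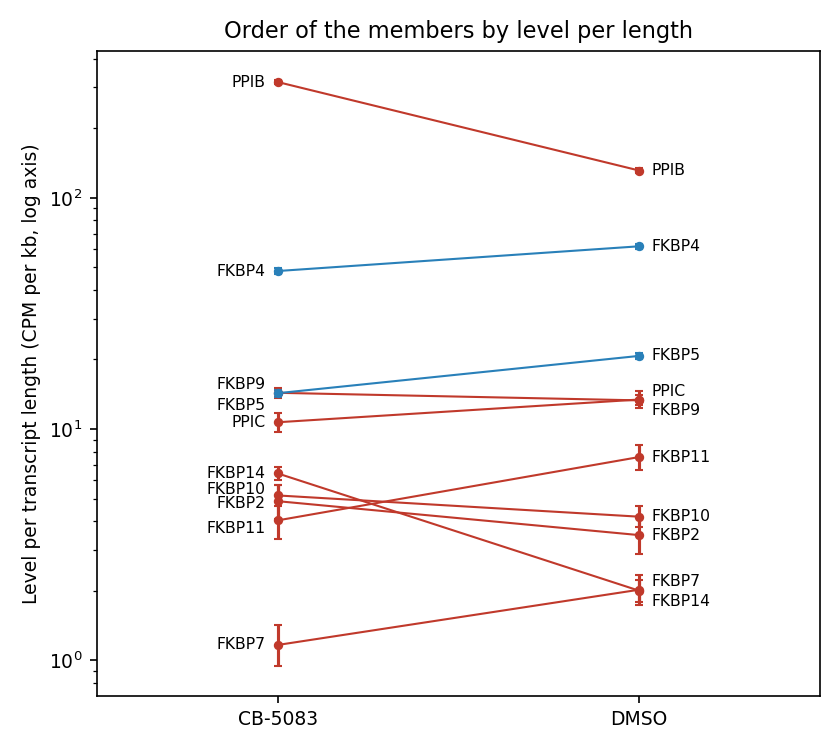
Level per kb of transcript (CPM per kb, log axis) of the 10 genes in the CB-5083 library (left) and the DMSO library (right), ER genes in red and cytosolic genes in blue, with 95% exact Poisson intervals for counting error. The line of FKBP14 crosses those of FKBP2, FKBP10 and FKBP11 and meets that of FKBP7 with DMSO, and PPIB leads in both libraries.

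Among the 24 other prolyl isomerases examined, which work in the cytosol, nucleus and mitochondria, 22 averaged at least 1 CPM and 19 passed the filter. Of the 19, none was higher and none lower, beside 7.22% higher and 4.91% lower of all genes tested. At those shares few calls would be seen among 19 genes. Their median log2 ratio over the measured genes was 0.09. PPIL4, a nuclear cyclophilin, came closest to the threshold, at 160 CPM with CB-5083 and 86.7 CPM with DMSO (1.84-fold, 1.76 to 1.93). CWC27, a cyclophilin of the spliceosome, was 1.48-fold above DMSO (1.39 to 1.57), and FKBP15 1.45-fold (1.30 to 1.61). PPIF, the cyclophilin of the mitochondrial matrix that governs the permeability transition, was at 56.2 CPM with CB-5083 and 85.1 CPM with DMSO. PPIA, cyclophilin A and the most abundant of the family, was at 1387 CPM with CB-5083 and 1580 CPM with DMSO, and FKBP1A, the main target of FK506, at 389 CPM with CB-5083 and 326 CPM with DMSO. Processed copies of PPIA and FKBP1A exist, so the values of these genes are uncertain where reads are shared. FKBPL was at 5.52 CPM with CB-5083 and 4.55 CPM with DMSO. The parvulin PIN4 was at 9.90 CPM with CB-5083 and 15.5 CPM with DMSO. PPIL6 (1.24 CPM with CB-5083 and 2.55 CPM with DMSO) and FKBP1B (3.10 CPM with CB-5083 and 4.22 CPM with DMSO) lay under the filter.

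**Figure D4:**
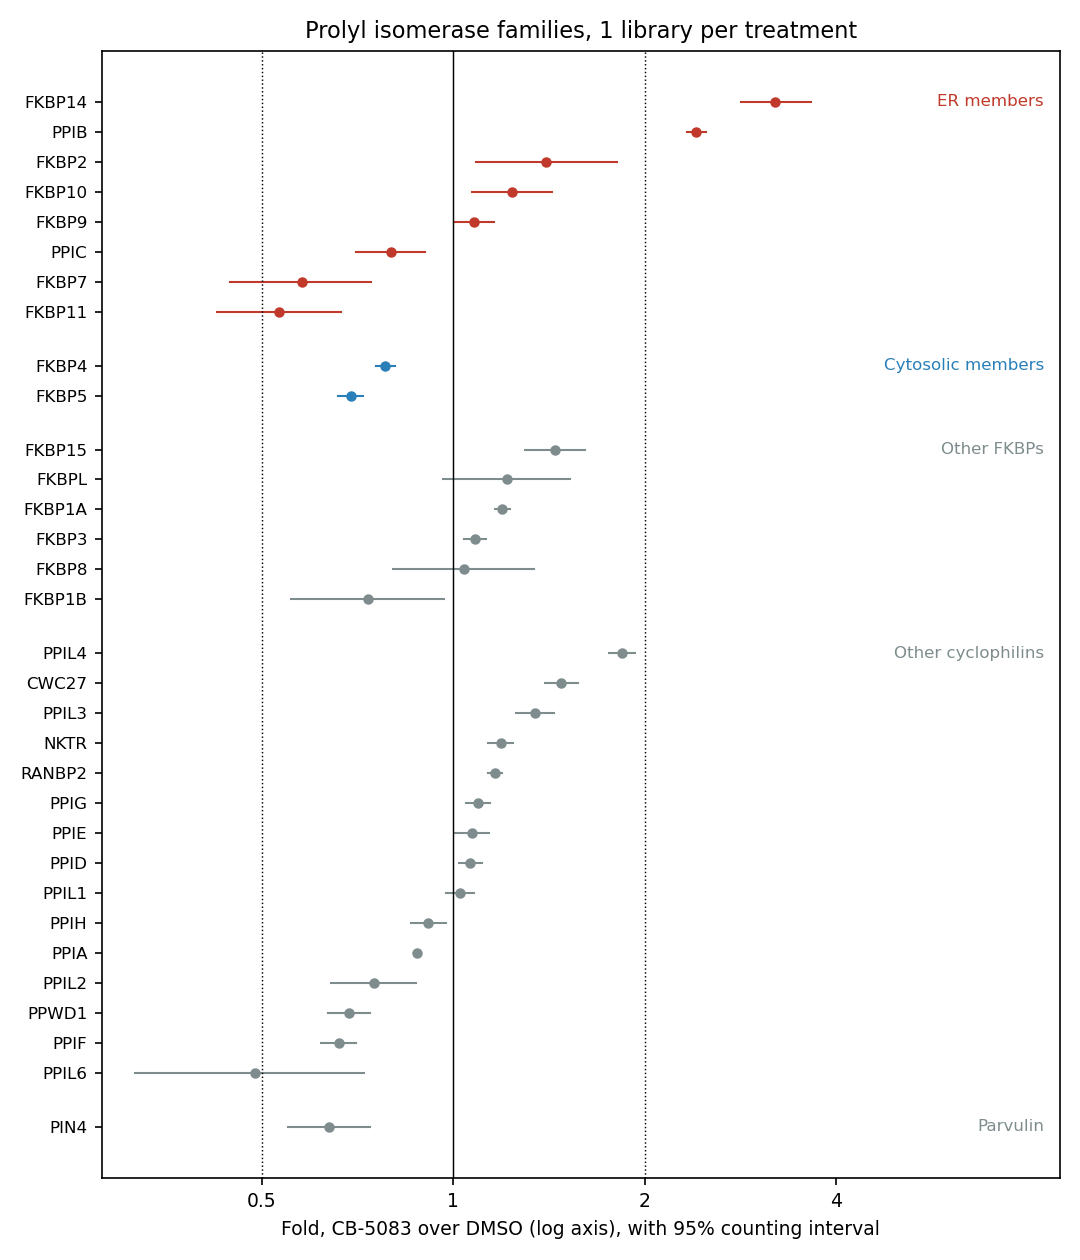
Fold of CB-5083 over DMSO on a log axis with its 95% counting interval, for the 10 genes and the 22 other prolyl isomerases of at least 1 CPM on average, sorted within each family. Dotted lines mark 2-fold in either direction. FKBP14 and PPIB lie beyond the upper line with their whole intervals, and of the others only the point of PPIL6, a gene under the filter, lies beyond a line.

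Procollagen modification involves FKBP10, FKBP14 and PPIB with the prolyl and lysyl hydroxylases, and 16 further genes of that pathway were read beside them. Of these 14 were measured and 11 passed the filter, with a median log2 ratio of -0.21 over the measured genes. Of the 11, 1 was higher, none lower and 10 neither. That is near the shares of all genes tested, 7.22% higher and 4.91% lower. The higher one was P4HB, protein disulfide isomerase and the beta subunit of prolyl 4-hydroxylase, at 806 CPM with CB-5083 and 339 CPM with DMSO. Its fold of 2.38 (2.32 to 2.43) overlapped the interval of PPIB, and with library totals it too fell short of the threshold. GLT25D1, which adds galactose to hydroxylysine, was at 34.3 CPM with CB-5083 and 60.6 CPM with DMSO. LEPREL4 (P3H4), a scaffold of lysyl hydroxylation that lies 106 bases from FKBP10, was at 1.21 CPM with CB-5083 and 4.06 CPM with DMSO, and LEPREL2 (P3H3) at 0.563 CPM with CB-5083 and 1.46 CPM with DMSO, both under the filter. P3H1, listed as LEPRE1, and CRTAP, the partners of PPIB, were named for that reason after their values were seen. LEPRE1 was at 9.54 CPM with CB-5083 and 10.9 CPM with DMSO, with a fold whose interval includes 1 (0.745 to 1.03), and CRTAP was at 64.4 CPM with CB-5083 and 89.8 CPM with DMSO. Neither was called, unlike PPIB with TMM.

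The HSP90 system of FKBP4 and FKBP5 was represented by 17 genes, themselves included, and PPID and FKBP8 also stand among the other isomerases. All 17 were measured and 15 passed the filter, and the median log2 ratio was 0.02. Of the 15, none was higher and none lower, beside 7.22% and 4.91% of all genes tested. FKBP5, STUB1 and FKBP4 had the lowest ratios of the 17. STUB1, the ubiquitin ligase CHIP, was under the filter at 2.57 CPM with CB-5083 and 3.79 CPM with DMSO, and lay above FKBP5 with 1 CPM added but below it without (0.677-fold against 0.690-fold). TOMM70A, the HSP90-docking receptor of mitochondria, was at 292 CPM with CB-5083 and 231 CPM with DMSO. HSP90AA1, the inducible HSP90, was at 6745 CPM with CB-5083 and 7377 CPM with DMSO.

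Of 14 steroid receptors and glucocorticoid-responsive genes, 13 were found in the files, 10 were measured and 7 passed the filter. Of the 7, 2 were higher, none lower and 5 neither, beside 7.22% higher and 4.91% lower of all genes tested. TSC22D3, which was called higher, and PER1, which was not, passed the filter through the CB-5083 library alone. PER1 was at 7.11 CPM with CB-5083 and 4.16 CPM with DMSO, and is named for this reason. The median over the measured genes was 0.50. ERRFI1, a feedback inhibitor of the EGF receptor, was at 3434 CPM with CB-5083 and 551 CPM with DMSO (6.24-fold, 6.14 to 6.34), and TSC22D3, the glucocorticoid-induced leucine zipper, at 16.5 CPM with CB-5083 and 3.94 CPM with DMSO (4.19-fold, 3.45 to 5.13). CEBPD was at 4.94 CPM with CB-5083 and 2.64 CPM with DMSO, and NR3C2, the mineralocorticoid receptor, at 0.457 CPM with CB-5083 and 1.97 CPM with DMSO. NR3C1, the glucocorticoid receptor, named after its value was seen, was at 40.1 CPM with CB-5083 and 28.9 CPM with DMSO. Of the 13 genes in the files 7 had a log2 ratio above 0 and 5 below 0.

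For scale, 9 chaperones and oxidoreductases of the ER lumen were all higher, beside 7.22% of all genes tested, with a median log2 ratio of 2.05. SDF2L1, named for this reason, passed the filter through the CB-5083 library alone, at 5.14 CPM against 0.850 CPM with DMSO. The count was 8 with library totals, with upper quartile scaling, with a filter of 10 CPM and at 3-fold. HSPA5, the HSP70 of the ER, had 4.05, HYOU1, its exchange factor, 3.29, HSP90B1, the HSP90 of the ER, 2.64, and DNAJB11, a cochaperone of HSPA5, 2.54. The lowest of the 9 was PDIA6, named for that after its value was seen, at 1.45. PPIB at 1.26 was below each of the 9. FKBP14 at 1.59 was above PDIA6, and above PDIA3 too when no CPM was added (3.21-fold for FKBP14 and 3.09-fold for PDIA3). The counting interval of FKBP14 (2.83 to 3.66) held that of PDIA3 (3.05 to 3.14), so these 2 could not be told apart. PDIA3 was also named after its value was seen, for this comparison. This list was chosen with earlier results of these libraries known, so its direction is not independent evidence.

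Neighbouring genes were read from the hg19 coordinates of the files. PLEKHA8, 1708 bases from FKBP14, was at 28.4 CPM with CB-5083 and 34.8 CPM with DMSO. PLEKHA3, 1843 bases from FKBP7, was at 53.4 CPM with CB-5083 and 29.6 CPM with DMSO. Neither of these neighbours had the direction of its isomerase, and neither passed the threshold. DFNB59, 2280 bases from FKBP7, was under the filter at 0.387 CPM with CB-5083 and 0.971 CPM with DMSO, the direction of FKBP7. SNX22, which overlaps PPIB, was at 0.598 CPM with CB-5083 and 2.34 CPM with DMSO. AVL9, which overlaps FKBP9, was at 32.7 CPM with CB-5083 and 25.1 CPM with DMSO. The libraries were stranded, but the strand setting of the counting was not stated in the labels used here. Reads where FKBP9 and AVL9 overlap are therefore uncertain. The same holds where PPIB overlaps SNX22 and FLJ00278, and where FKBP5 overlaps LOC285847.

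Scaling by library totals lowered the median log2 ratio of the tested genes by 0.33 and moved every member down with it. FKBP14 was then the 1 member called higher and FKBP11 the 1 called lower, against 3.86% and 10.3% of all genes. Upper quartile and median-of-ratios scaling and the authors' deposited ratio each called FKBP14 and PPIB higher and none of the 10 genes lower. Of all genes, 6.11% were higher and 6.11% lower with upper quartile scaling, 7.45% and 4.81% with median of ratios, and 6.67% and 7.57% in the authors' deposited table. With TMM and a threshold of 1.5-fold, FKBP7 and FKBP11 also counted as lower, where 17.4% of all genes were higher and 12.5% lower. At 3-fold FKBP14 alone was called, against 2.57% of all genes higher and 1.11% lower.

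**Figure D5:**
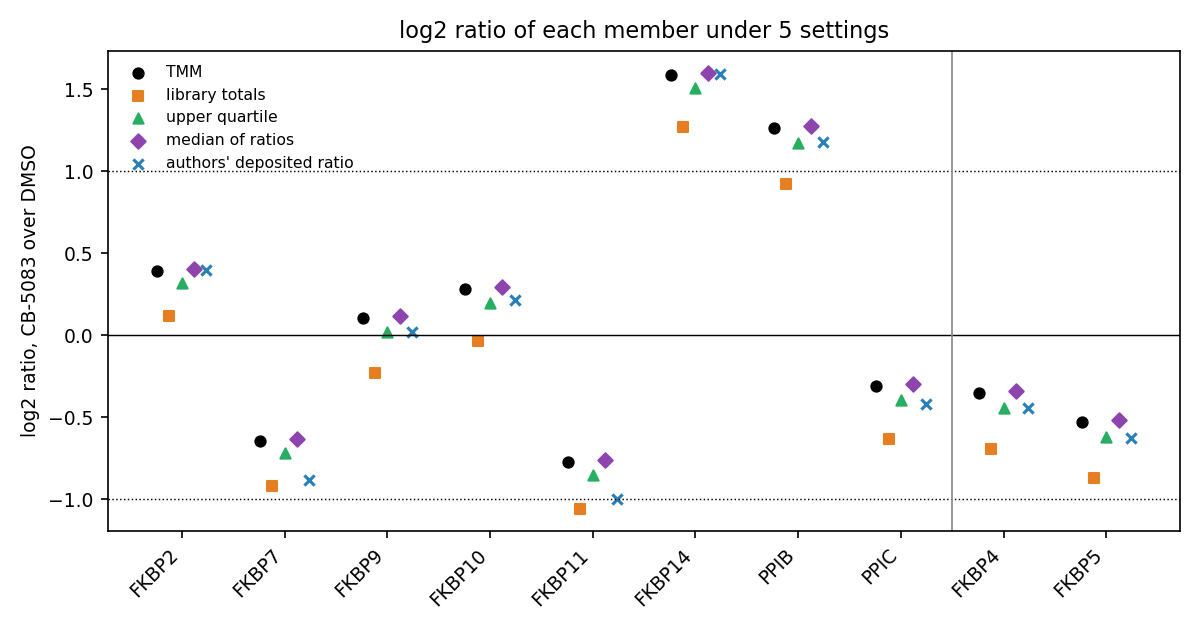
Log2 ratio of CB-5083 over DMSO for the 10 genes under TMM, library totals, upper quartile and median-of-ratios scaling (1 CPM added) and in the authors' deposited table (nothing added). Dotted lines mark the threshold of 1. FKBP14 stays above 1 in all 5, PPIB in 4, and FKBP11 passes -1 with library totals alone.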

How the data were processed

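Gene expression was measured in 2 libraries, 1 with CB-5083 and 1 with DMSO, made with a stranded mRNA kit per the labels' protocols. RSEM 1.2.0 and hg19 are named in the submitters' processing notes, which name no aligner in the sources used here. The deposited columns, although headed counts, hold a signal: the authors scaled the estimated counts of a library until the 75th percentile over its genes lay near 1000. Dividing by the step between low values, 1.175 with CB-5083 and 1.079 with DMSO, gave estimated counts back. Of the values above 0, 55.6% with CB-5083 and 54.7% with DMSO were whole within 0.02. The design had assumed counts, and CPM were computed from these estimates in its place. Of 21116 rows, 1 held no value. The authors' deposited log2 ratio uses the scaled signal with no pseudocount.

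TMM trimmed 30% of ratios and 5% of means. The genes named by rule are the 10 members and, of each of 7 lists, up to 4 measured genes and the most abundant one. The 4 are those whose log2 ratios were largest in size, in either direction. Genes named outside this rule are markers, neighbours, copies or genes picked after their values were seen. Members and lists were chosen with earlier results of these data known. Some genes of these families are not reported here. Of 80 list symbols 79 were matched, some through RefSeq synonyms. Genes were not ranked by likeness of pattern, since 2 libraries give 1 ratio. The replicate number of a library names it only. The scripts were tested on simulated data. Alternatives for scaling, pseudocount, filter and threshold were run 1 at a time. Computations ran in Python 3.11.15 with scipy 1.17.1, numpy 2.4.6, matplotlib 3.10.9 and pandas 2.3.3.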

Additional observations from a re-analysis of the deposited data

How the results depend on the processing

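No paired analysis was possible because each treatment had 1 library, and for the same reason no library could be left out. The count of higher ER genes was 1 with library totals and 1 at 3-fold, against 2. The count of lower ER genes was 1 with library totals and 2 at 1.5-fold (FKBP7 and FKBP11), against 0. The median over the 10 members was -0.10, and -0.43 with library totals, -0.19 with upper quartile scaling, -0.088 with median of ratios, -0.20 in the authors' deposited table, -0.11 with a pseudocount of 0.1 CPM and -0.11 with none. The ER minus cytosolic difference of medians was 0.65 with library totals, in the authors' deposited table, with 0.1 CPM and with no pseudocount, against 0.64. Other prolyl isomerases had 1 higher and 2 lower genes at 1.5-fold, against 0. At 1.5-fold 17.4% of all genes tested were higher and 12.5% lower. The shares were 2.57% and 1.11% at 3-fold, and 3.86% and 10.3% with library totals. With no filter the share was not computed. Collagen modification genes had 0 higher with library totals and at 3-fold, against 1, and 1 lower with library totals, with no filter and at 1.5-fold, against 0. Steroid receptor response genes had 1 lower with no filter, against 0. In the 250 bases before the start alone, 0 windows held the unfolded protein response core and 0 the glucocorticoid element, against 1 each. The half-sites, added after the data were seen, gave 5 windows with CCAAT and 9 with CCACG where the whole ER stress element gave 0. These are out of 13 windows, some of which belong to the same gene. The 5 windows come from 4 genes and the 9 from 5 genes. Of all windows 34.6% held CCAAT and 38.1% CCACG. Of 60 ratios of single members under the alternatives, 13 moved beyond their counting interval, and the ratios of FKBP14 and PPIB stayed positive. No other alternative moved a count by more than 1.5 times. The causes were not tested. Depth limits FKBP2, FKBP7 and FKBP11, whose intervals rest on 94 to 257 estimated counts per library.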

Other observations

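Genes of high GC content had lower median levels than genes of low GC content in these libraries. Of the members and list genes averaging at least 1 CPM and with a matched transcript, the 11 under 5 CPM in both libraries had a median transcript GC content of 62.2%, against 47.3% for the 67 above. These low genes included FKBP2 (63.8%) and STUB1 (65.3%), but also PPIL6 (48.7%), FKBP1B (54.4%) and NR3C2 (44.6%), while P4HB (58.4%) was at 806 CPM with CB-5083 and 339 CPM with DMSO. Over 8860 of the 9543 tested genes with a matched transcript, the 1772 genes with the highest GC content (55.5% to 71.1%) had a median level of 11.5 CPM with CB-5083 and 12.1 CPM with DMSO, and the 1772 with the lowest GC content 74.4 CPM with CB-5083 and 61.5 CPM with DMSO. The median log2 ratio was -0.04 in the GC-richest set and 0.18 in the GC-poorest. Of the 2 genes called higher, PPIB, with a GC content of 58.2%, lies in the richest set and FKBP14, with 38.8%, in the poorest. The part of GC content in these values was not tested.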
